A study of Capra hircus with 4 samples.

Results

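Cytokine-family genes were examined in stem cells cultured from the secondary hair follicles of the cashmere goat (Capra hircus), which produce the soft cashmere underwool. The genes were all rows whose symbol is that of a chemokine, chemokine receptor, interleukin, interleukin receptor or member of the tumour necrosis factor (TNF) ligand (TNFSF) or receptor (TNFRSF) superfamily, or whose description begins as a C-C or C-X-C motif chemokine. This rule took 153 of 20326 genes, 144 by symbol and 9 by description alone. They comprised 31 chemokine ligands, 16 chemokine receptors, 36 interleukin ligands, 42 interleukin receptors with their antagonists and binding proteins, 11 TNFSF ligands, 16 TNFRSF receptors and the enzyme gene IL4I1.

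The cells were isolated from dorsal skin and cultured. Early anagen, the start of follicle growth, was sampled in April, and mid anagen in October. Each phase had 2 libraries, 1 from a female and 1 from a male goat, which the labels call biological replicates. All groups had the same cell type and culture, no treatment is named, and the labels give neither the age nor the number of goats behind a library. The unit of the deposited values is not stated. They were treated as length-normalised abundances per gene, and comparisons of levels between genes rest on that. The number of reads behind them is unknown. Below, each pair of values is given with the female library first and the male library second.

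Chemokines are small secreted proteins that bind G protein-coupled receptors and direct the movement of leukocytes, and CX3CL1 (fractalkine) is unusual in also being made as a membrane-anchored adhesion molecule. Interleukins of the interleukin-1 family signal through receptors coupled to the adaptor MYD88 and NF-kB, while many others use receptor chains coupled to JAK kinases and STAT factors. TNF superfamily ligands bind receptors that recruit TRAF adaptors or death domain proteins. Skin keratinocytes make several of these ligands and carry many of their receptors, and in the follicle they are part of the exchange between epithelial and immune cells.

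Totals of the deposited values lay between 844960 and 1186966 per library. The 9 keratinocyte and follicle stem cell markers found by symbol reached 1 in every library and summed to 37804 and 42968 in April and to 18177 and 19491 in October. The basal keratins KRT14 and KRT5 made up most of these sums, while the stem cell factors SOX9, LHX2, NFATC1 and TCF7L1 had higher values in both October libraries. Of 20 immune cell markers only 4 could be tested, and the pan-leukocyte gene PTPRC, the myeloid adaptor TYROBP and the B cell genes CD79B and MS4A1 were at 0 in every library. Genes that reached a value of 1 in 2 or more libraries were tested between phases with limma on the log2(value + 1) scale, and p-values were adjusted over all 12486 such genes.

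Most cytokine-family genes were at or near 0 in these cells. Of the 153 members, 25 were at 0 in all 4 libraries and 86 never reached 1. Another 5, CCL25, IL7, IL24, IL17RB and IL18R1, reached 1 in a single library only. That left 62 tested members, or 40.5%, against 61.4% of all genes, and 53 members reached 1 in every library. The tested members were 11 chemokine ligands, 3 chemokine receptors, 11 interleukin ligands, 21 interleukin receptors, 5 TNFSF ligands, 10 TNFRSF receptors and IL4I1. Members under the filter included many genes of lymphoid and myeloid cells, such as IL2, IL5, IL21 and CCR7, which were at 0 throughout.

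Receptors carried most of the summed signal. The 74 receptor genes summed to 1787 and 1933 in April and 2177 and 2138 in October, while the 78 ligand genes summed to 793 and 617 in April and 742 and 694 in October. Both mid sums of receptors were above both early sums, whereas the ligand sums overlapped. The separation of the receptor sums rested on TNFRSF6B, at 717 and 657 in April and 931 and 916 in October. Without that gene the receptor sums overlapped as well. All members together held 0.243% and 0.216% of the library total in April and 0.314% and 0.337% in October. Part of that difference in share lies in the totals themselves, which were lower at mid anagen.

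A few genes made up the receptor signal. TNFRSF6B, a soluble decoy receptor that binds FASLG and TNFSF15, was the highest member, at 717 and 657 in April and 931 and 916 in October. TNFRSF12A, the receptor for TNFSF12 (TWEAK), was at 334 and 407 in April and 341 and 328 in October. TNFRSF21, a death domain receptor, was at 156 and 288 in April and 182 and 209 in October. TNFRSF6B was higher in both mid than in both early libraries, while the other pair of receptors overlapped between phases. Among ligands the highest was IL18, an interleukin-1 family cytokine that epithelial cells store as an inactive precursor, at 336 and 224 in April and 281 and 221 in October. CXCL14, a chemokine of skin epithelium, was at 150 and 52.9 in April and 141 and 92.2 in October. For both ligands the female library was above the male library in each phase.

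**Figure D1:**
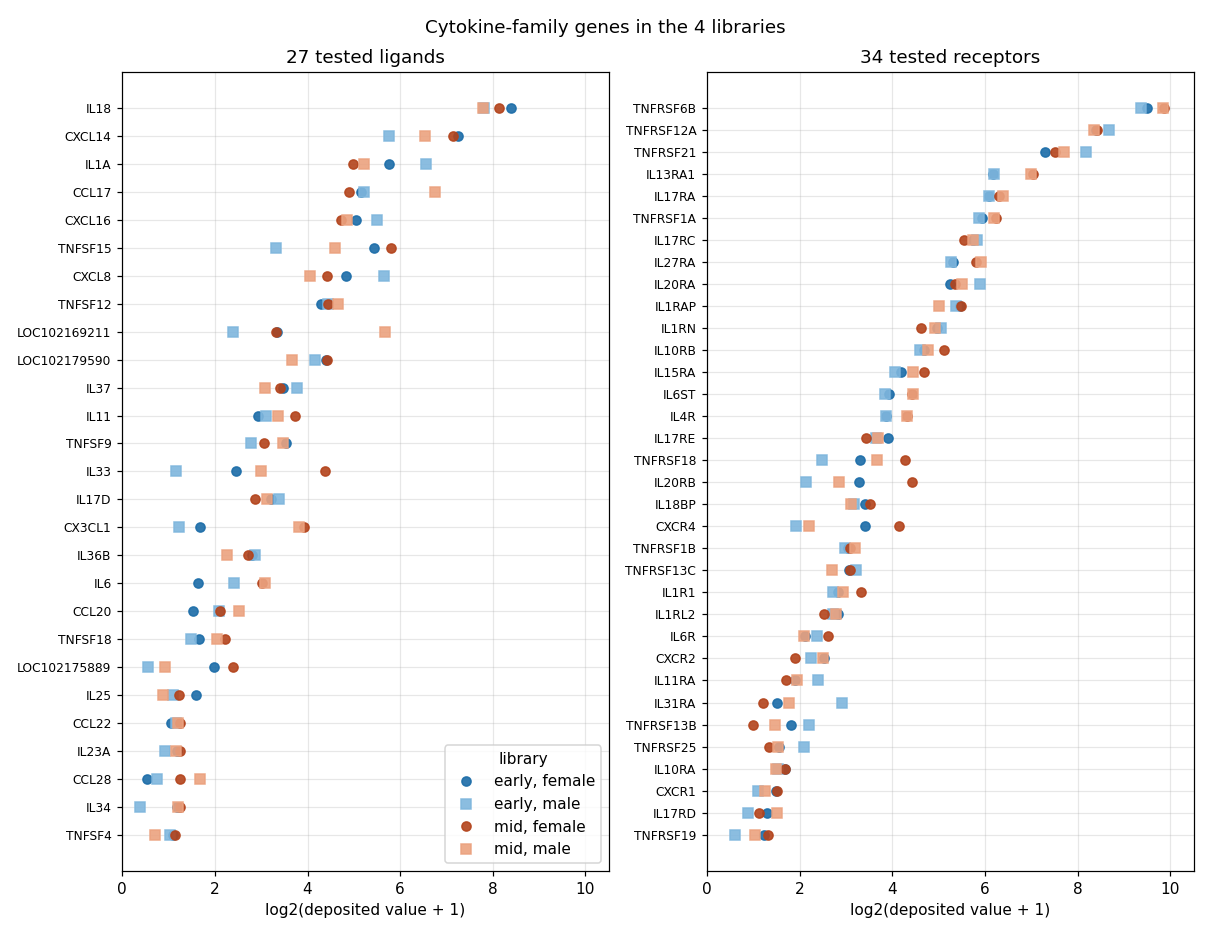
Values of the tested ligands (left, 27 genes) and receptors (right, 34 genes) on the log2(deposited value + 1) scale, ordered by mean; each symbol is 1 library, blue for early and orange for mid anagen, circles for female and squares for male. TNFRSF6B, TNFRSF12A and TNFRSF21 stand at the top of the receptors and IL18 at the top of the ligands, and most genes show no gap between the phases as wide as that of CX3CL1.

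Mid anagen was then compared with early anagen, to see which of these genes differ between the phases of cashmere growth. Phase and month of sampling are the same in the labels. A difference between phases thus cannot be told apart from one between months or between the cultures made in them. Of the 62 tested members, 1 passed the adjusted threshold of 0.05 as higher at mid anagen, against 0.224% of all tested genes, and 0 passed as lower, against 0.0801%. With limma's unadjusted p under 0.05 there were 15 members, 12 higher and 3 lower, while that held for 27.9% of all tested genes. In 21 members, or 33.9%, both mid libraries lay above both early libraries, against 31.5% of all tested genes. Values were lower without overlap in 9 members, or 14.5%, against 30.9%. After rescaling each library to a common total, 46.8% of the tested members were higher and 4.84% lower without overlap, against 57.2% and 12.7% of all tested genes. No test was made of these shares. The median log2 fold change was 0.13 over the tested members and 0.01 over all tested genes.

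The member that rose was CX3CL1, the ligand of the receptor CX3CR1. It was at 2.21 and 1.35 in the April libraries, and at 14.2 and 13.0 in the October libraries. Both mid values were several times both early values, with a narrow spread within each phase. The log2 fold change was 2.41 (SE 0.21, limma adjusted p = 0.0323, n = 2 per phase), with 2.24 in the female and 2.57 in the male pair. CX3CR1 was nearly absent in these cells, at 0 and 0.0122 in April and 0.0418 and 0.0113 in October. The call was lost without the early female library (adjusted p = 0.0657), without the early male library (adjusted p = 0.197), with a pseudocount of 0.1 (adjusted p = 0.051) and with no filter on low values (adjusted p = 0.105). In all of these the fold change stayed between 2.18 and 2.90.

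Summed values of endothelial, fibroblast and immune cell markers differed between phases without overlap. The 10 listed endothelial markers, of which 2 could be tested, summed to 4.31 and 4.55 in April and to 11.8 and 11.4 in October, with the endothelial cadherin CDH5 at 0 throughout. EGFL7 and ERG made up most of these sums, ERG reached 1 in October alone, and PECAM1, a defining marker, was at 0.313 and 0.278 in April and 0.0664 and 0.0777 in October. The 12 fibroblast and dermal papilla markers, of which 8 could be tested, summed to 40.3 and 25.6 in April and to 191 and 78.9 in October. Of those 8, 7 reached 1 in October alone, so their direction was fixed by the filter. Among these FBN1 was called, at 0.125 and 0.133 in April and 8.48 and 5.86 in October (log2 fold change 2.84, limma adjusted p = 0.0323). COL1A1 was at 0.179 and 0.987 in April and 58.6 and 19.8 in October (log2 fold change 4.52, adjusted p = 0.0551). COL1A2 had a fold change of 3.94 (adjusted p = 0.0711). THY1, the remaining tested marker, overlapped between phases. The 20 immune cell markers summed to 14.1 and 11.2 in April and to 23.5 and 16.9 in October. The separation of the immune sums rested on CD14, at 3.28 and 2.49 in April and 12.6 and 8.52 in October (limma adjusted p = 0.0688). Without that gene the immune sums overlapped, as did the other tested immune markers CD68, CD3D and CD79A. The 7 melanocyte markers overlapped, at 5.8 and 7.07 in April and 6.58 and 7.23 in October. Endothelial cells and fibroblasts can express CX3CL1, and the part of these cells in the difference was not tested. In bulk libraries fewer cells of a type and less RNA per cell cannot be told apart.

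**Figure D2:**
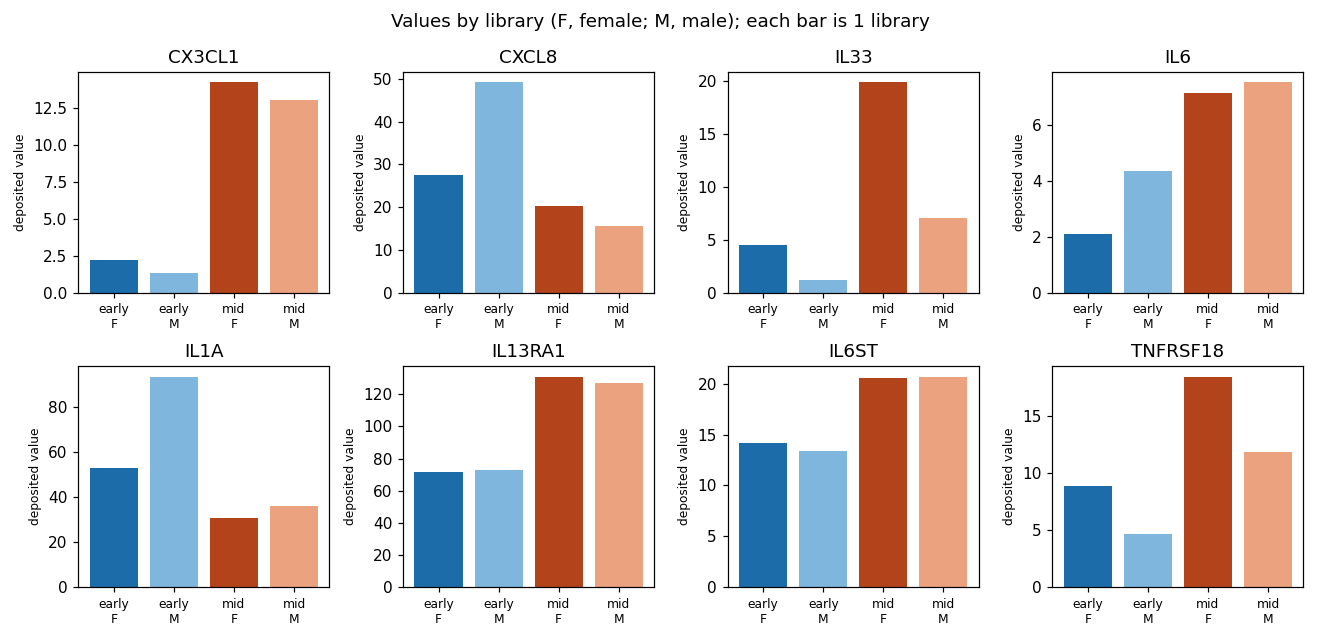
Deposited values of 8 members in each library, with a linear axis from 0; each bar is 1 library (F, female; M, male), blue for early and orange for mid anagen. CX3CL1 rises from 2.21 and 1.35 to 14.2 and 13.0 with similar values in both sexes, whereas IL33 differs between the sexes within each phase; apart from CX3CL1 no panel shows a difference past the adjusted threshold.

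Other chemokine ligands gave no call in either direction. CXCL8, the neutrophil chemoattractant, was at 27.6 and 49.2 in April and 20.3 and 15.7 in October. All mid values of CXCL8 were below all early values, yet the fold change of -1.01 (SE 0.30, limma adjusted p = 0.114) did not pass. CXCL16, a membrane-anchored chemokine and the other one of that kind beside CX3CL1, was at 31.9 and 44.5 in April and 25.6 and 28.0 in October (log2 fold change -0.48, adjusted p = 0.191). It did not overlap between phases as deposited, in the direction opposite to CX3CL1, but did so after rescaling to a common total. CCL28, a chemokine of epithelial surfaces, was at 0.451 and 0.677 in April and 1.37 and 2.19 in October (log2 fold change 0.82, adjusted p = 0.12). CCL28 reached the filter in October alone, which fixed its direction, and it was the only tested member of which this holds.

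CCL17, a ligand of the receptor CCR4 on T cells, stood out by a single library. It was at 34.5 and 36.3 in April and at 28.9 in the October female, but at 106 in the October male library. LOC102169211, which is also described as C-C motif chemokine 17 and was singled out for that reason, was at 9.21, 4.21 and 9.03 in the same 3 libraries and at 49.7 in the October male library. Reads of both genes may have been divided between them, so their separate values are uncertain. Summed, they gave 43.8 and 40.5 in April and 38.0 and 156 in October, a log2 change of -0.20 in the female and 1.92 in the male pair (limma adjusted p = 0.404 for the phases). LOC102179590, described as C-C motif chemokine 3 and named for its level, was at 20.1 and 17 in April and 20.3 and 11.6 in October. Its values overlapped between phases. Its span of 38429 bp overlaps that of LOC108638245, so reads from shared stretches could not be told apart. LOC102181154, with the same description, and LOC108638246, described as C-C motif chemokine 3-like, were at 0 throughout. TNF itself, singled out after its values were seen and under the filter, had its only value above 1 in that October male library, at 3.51, against 0.171 to 0.444 in the other 3.

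Only 3 chemokine receptors could be tested, and 0 of them were separated by phase. Over all tested genes 31.5% were higher and 30.9% lower without overlap. CXCR4, the receptor of CXCL12, was at 9.59 and 2.79 in April and 16.8 and 3.63 in October. CXCR2 and CXCR1, near-identical receptors of CXCL8 whose reads may have been shared, were at 4.76 and 3.75 in April and 2.75 and 4.64 in October for CXCR2, and at 1.81 and 1.15 in April and 1.86 and 1.39 in October for CXCR1. The other 13 chemokine receptors were under 1 in every library, and 4 of them were at 0 in all. Limma gave 0 calls among the 3, and 0 had an unadjusted p under 0.05.

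Of 11 tested interleukin ligands, 4 were higher and 4 lower without overlap, or 36.4% each way, near the 31.5% and 30.9% of all tested genes, and the median log2 fold change was -0.14. IL33, an alarmin of the interleukin-1 family held in the nucleus of barrier cells, was at 4.52 and 1.24 in April and 19.9 and 7.03 in October. The difference of 1.88 (SE 0.59, limma adjusted p = 0.125) was the second largest among the tested members and almost equal in the pairs, at 1.92 for females and 1.84 for males. The female library was well above the male library in each phase, and that spread enters the standard error. IL6, the founding ligand of the family that signals through IL6ST, was at 2.10 and 4.36 in April and 7.14 and 7.53 in October (log2 fold change 1.03, SE 0.29, adjusted p = 0.103). IL11, a ligand of the same family, was at 6.60 and 7.56 in April and 12.3 and 9.25 in October (log2 fold change 0.53, adjusted p = 0.15). Both IL6-type ligands were thus higher in each mid library without passing.

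On the lower side was IL1A, the interleukin-1 form that keratinocytes keep in stock. It was at 52.8 and 93.3 in April and at 30.8 and 36.1 in October, which is -1.05 on the log2 scale (SE 0.29, limma adjusted p = 0.101). IL37, an anti-inflammatory relative, was at 10.1 and 12.6 in April and 9.61 and 7.41 in October (adjusted p = 0.257). IL36B, outside the rule for named genes and given here as a further ligand of the interleukin-1 family, was at 6.02 and 6.30 in April and 5.52 and 3.83 in October. Of the tested ligands of this family, IL1A, IL36B and IL37 were therefore lower in both October libraries, IL33 was higher and IL18 overlapped, with 0 calls among them. The antagonist IL1RN is given with the receptors below. After rescaling to a common total IL1A and IL33 remained apart between phases, and IL36B and IL37 overlapped. IL1B was at 0 in 3 libraries and at 0.273 in the early male library.

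Of the 21 tested interleukin receptors, 8 were higher (38.1%) and 1 was lower (4.76%) without overlap, against 31.5% and 30.9% of all tested genes. After rescaling to a common total 11 were higher (52.4%) and 0 lower, against 57.2% and 12.7% of all tested genes, so the share of higher genes was no larger than that background. The gene lower as deposited was IL1RN, the interleukin-1 receptor antagonist counted in this class and not itself a receptor. It was at 30.4 and 31.9 in April and 23.5 and 29.4 in October. IL13RA1, a chain shared by the receptors of IL4 and IL13, was at 71.5 and 72.7 in April and 131 and 127 in October. The log2 difference was 0.83 (SE 0.15, limma adjusted p = 0.0724), the smallest adjusted p after CX3CL1, and the values within each phase were nearly equal. IL4R, which pairs with IL13RA1, was at 13.5 and 13.5 in April and 18.9 and 19.0 in October (log2 fold change 0.46, adjusted p = 0.113). Both chains of this receptor were higher in each mid library, while their ligands IL4 and IL13 were never above 0.162.

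The signalling chain of the IL6 family showed the same order. IL6ST (gp130) was at 14.2 and 13.4 in April and 20.6 and 20.7 in October (log2 fold change 0.55, SE 0.14, limma adjusted p = 0.0905). IL27RA, which partners IL6ST in the IL27 receptor, was at 38.9 and 37.6 in April and 54.6 and 59.0 in October (log2 fold change 0.56, SE 0.14, adjusted p = 0.0927). None of these receptor differences passed, although each exceeded the spread between the libraries of a phase. The IL17 receptor chains were among the more abundant members. IL17RA was at 67.4 and 67.3 in April and 78.0 and 82.3 in October (adjusted p = 0.313), and IL17RC at 52.3 and 56.1 in April and 45.9 and 52.8 in October (adjusted p = 0.595). In RefSeq's ARS1.2 annotation the spans of IL13RA1, IL27RA, IL6ST, TNFRSF1A and CXCL16 overlap those of other genes, and reads from shared stretches could not be told apart.

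**Figure D3:**
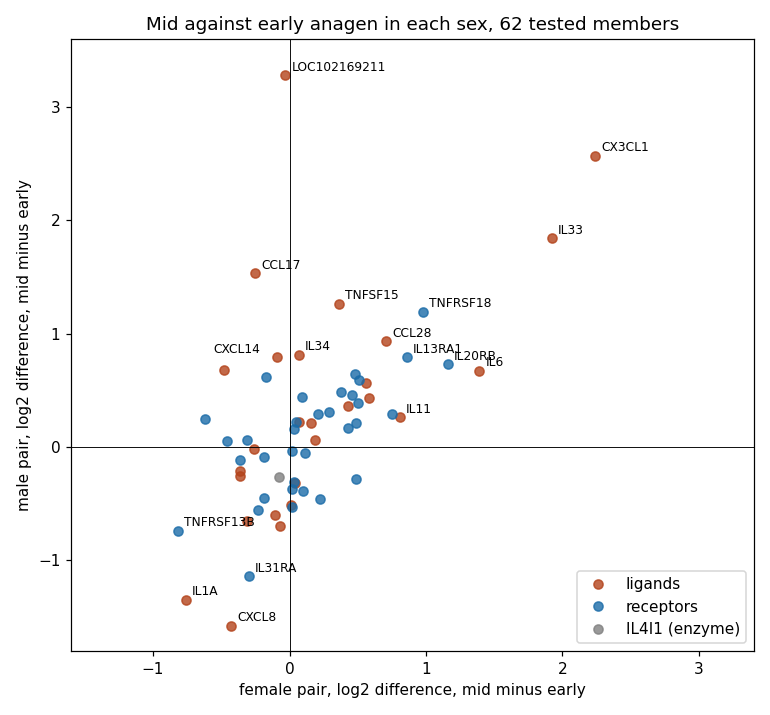
Difference between mid and early anagen on the log2(value + 1) scale in the female pair (horizontal) and the male pair (vertical) for the 62 tested members; each point is 1 gene, orange for ligands and blue for receptors. CX3CL1 at 2.24 and 2.57 and IL33 at 1.92 and 1.84 are far up in both pairs, IL1A and CXCL8 are down in both, and CCL17 with LOC102169211 is up in the male pair alone.

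Among TNF superfamily ligands 1 of 5 tested genes (20%), TNFSF18, was higher without overlap between phases, and 0 were lower. Over all tested genes those shares were 31.5% and 30.9%. TNFSF18, the ligand of TNFRSF18 (GITR), was at 2.15 and 1.79 in April and 3.63 and 3.10 in October (log2 fold change 0.56, SE 0.19, limma adjusted p = 0.141). Its receptor TNFRSF18 was at 8.82 and 4.62 in April and 18.4 and 11.8 in October (log2 fold change 1.09, SE 0.33, adjusted p = 0.121). Ligand and receptor were thus both higher in each mid library, and neither passed. TNFSF12 (TWEAK) was at 18.6 and 20.9 in April and 20.9 and 24.2 in October (adjusted p = 0.477). TNFSF9, a costimulatory ligand, was at 10.6 and 5.88 in April and 7.29 and 10.1 in October, and TNFSF4, the OX40 ligand, at 1.13 and 1.05 in April and 1.19 and 0.644 in October. In those 2 genes the female and male pairs went in opposite directions.

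Over 10 tested genes the TNFRSF receptors had a median of 0.01 on the log2 scale. Without overlap 4 were higher (40%) and 2 lower (20%), against 31.5% and 30.9% of all tested genes. After rescaling 6 were higher (60%) and 1 lower (10%), against 57.2% and 12.7% of all tested genes. TNFRSF1A, the main receptor of TNF, was at 60.5 and 57.8 in April and 74.5 and 71.8 in October (log2 fold change 0.30, SE 0.14, limma adjusted p = 0.232). TNFRSF6B had a fold change of 0.43 (SE 0.21, adjusted p = 0.248). TNFRSF13B, a receptor known from B cells, was at 2.49 and 3.61 in April and 0.981 and 1.77 in October (log2 fold change -0.78, SE 0.26, adjusted p = 0.139). It was the only member with a lower value at mid anagen and an unadjusted p under 0.05 among the receptors.

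By role, the 27 tested ligands had a median log2 fold change of 0.18 and the 34 tested receptors 0.10. Ligands ran from -1.05 to 2.41 and receptors from -0.78 to 1.09. The medians were 0.04 for ligands and 0.10 for receptors in the female pair, and 0.26 and 0.16 in the male pair. The ligand median was -0.16 without the early male library, and the receptor median was -0.01 without the mid female library. Rescaling each library to a common total moved the median of all tested genes from 0.01 to 0.32, and gave 0.51 for ligands and 0.36 for receptors. Ligand genes spanned a median of 9036 bp and receptor genes 25182 bp. With the trend of the values with span removed, CX3CL1 was still the single member called.

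Ligands and receptors were then set side by side by axis. Each of 46 ligands was set beside a chosen receptor or set of receptor chains, not beside every receptor it is known to bind. The counts depend on that choice. A gene counted as present where 2 or more libraries reached 1. Ligand and receptor were both present in 8, the ligand alone in 12, the receptor alone in 13 and neither in 13. By the same cut 34.6% of all ligand members and 45.9% of all receptor members were present. Whether 8 departs from what such shares would give was not tested. Some receptors counted as absent lay just under the cut, such as IL17RB at a mean of 0.875 and CCR6 at 0.819. The 8 axes with both were CXCL8, IL1A, IL36B, IL6, IL11, TNFSF12, TNFSF15 and TNFSF18. The CXCL8 receptors and TNFRSF25, the receptor set beside TNFSF15, were low beside their ligands. Means over the 4 libraries were 1.55 for CXCR1 and 2.16 for TNFRSF25. The decoy receptor TNFRSF6B, which also binds TNFSF15, was not counted in that axis.

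Several abundant ligands lacked a receptor chain here. IL18 stood beside IL18RAP, the chain its receptor needs for signalling, at 0 in all libraries. Its main chain IL18R1 was at 0.0725 and 0.133 in April and 0.661 and 2.13 in October. IL33 stood beside IL1RL1 (ST2) at 0 in every library. CXCL16 stood beside CXCR6 at a mean of 0.183, and CCL17 beside CCR4 at 0.366. The reverse held for the IL17 axis, where IL17A was at 0 and IL17F at 0.0362 in a single library while both receptor chains had high values. It also held for the IL20 axis, with a mean of 9.72 for IL20RB. CXCR4 likewise stood beside CXCL12 at 0 and 0.199 in April and 0.64 and 0.513 in October. These levels describe RNA of cultured cells only, and a value of 0 does not show that a gene is off, since the depth is unknown.

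**Figure D4:**
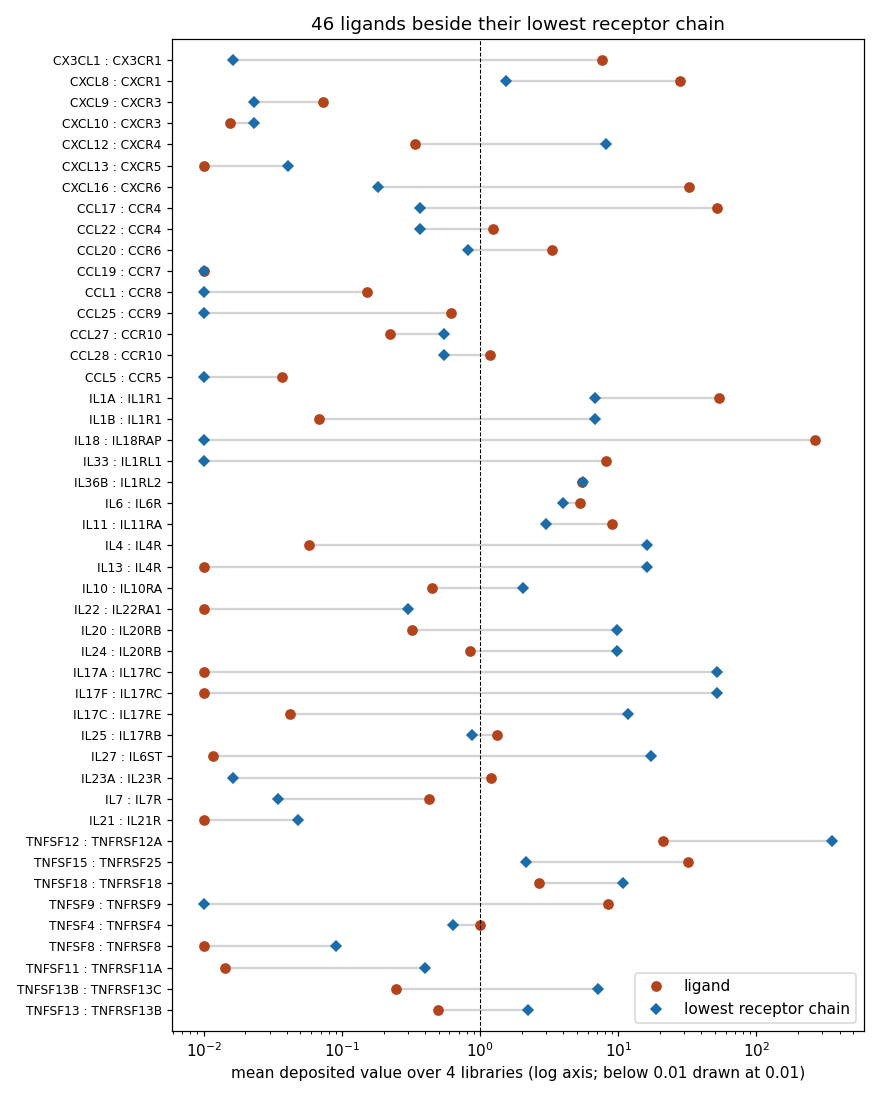
Mean deposited value over the 4 libraries (log axis) of 46 ligands (orange circles) beside the lowest chosen receptor chain (blue diamonds). Values below 0.01 are drawn at 0.01, and the dashed line marks 1. Ligands such as IL18, IL33 and CX3CL1 lie right of the line with a receptor chain far left of it, and the receptors of IL17A, IL4 and IL27 show the opposite.

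The signal transducers that these receptors use were examined as lists. Limma gave 0 calls over all genes in each of the 3 lists of NF-kB factors, of TNF and interleukin-1 receptor adaptors and of JAK, STAT and SOCS genes. The counts that follow stand beside 31.5% higher and 30.9% lower without overlap, and 27.9% with an unadjusted p under 0.05, over all tested genes. These are values as deposited. Rescaling to a common total gave 57.2% higher and 12.7% lower over all tested genes, and moved their median from 0.01 to 0.32. Shares and medians of the lists were not taken after rescaling. Over its 20 tested genes the JAK, STAT and SOCS list had a median of 0.33 on the log2 scale, with 13 higher (65%) and 3 lower (15%) without overlap, and 9 with an unadjusted p under 0.05, all higher. STAT3, the main factor downstream of IL6ST, was at 47.8 and 41.2 in April and 86.2 and 84.3 in October (log2 fold change 0.93, SE 0.15, adjusted p = 0.0724). STAT2 and PIAS3, an inhibitor of STAT3, had fold changes of 0.48 and 0.81. NF-kB family members, inhibitors and kinases had a median of 0.20 over 17 genes, with 9 higher (52.9%) and 2 lower (11.8%) without overlap and 5 with an unadjusted p under 0.05. RELB, a factor of the alternative NF-kB pathway, was at 2.15 and 2.10 in April and 4.42 and 5.29 in October (adjusted p = 0.0766), MAP3K14 (NIK), the kinase of that pathway, had a fold change of 0.66, and NFKBIZ had 0.51. The adaptors had a median of 0.19 over 24 genes, with 11 higher (45.8%) and 4 lower (16.7%) without overlap and 4 with an unadjusted p under 0.05, with fold changes of 1.09 for IRAK2, 0.75 for TRAF1 and 0.46 for TAB2. IRAK2 reached the filter in October alone, as did LIFR and MMP7 in the lists that follow, so their direction was fixed.

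Cytokine genes outside the symbol rule were also counted. Limma called 0 of 17 tested genes on that list, with 5 at an unadjusted p under 0.05 and a median of 0.09. OSMR, a receptor chain that pairs with IL6ST, was at 45.8 and 23.9 in April and 102 and 76.4 in October (log2 fold change 1.39, SE 0.33, adjusted p = 0.0861), and LIFR, another partner of IL6ST, had a fold change of 1.36. MIF, an abundant cytokine with the opposite direction, was at 2941 and 2618 in April and 1004 and 813 in October (log2 fold change -1.62, SE 0.27, adjusted p = 0.0724). On the list of cytokine processing and shedding genes 5 could be tested, the proteases ADAM10, ADAM17, MMP7 and MMP9 and also GSDMD, which is not a protease. Limma called 0 of these 5, and 2 had an unadjusted p under 0.05. All 5 were higher without overlap, against 31.5% of all tested genes as deposited and 57.2% after rescaling. The direction of MMP7 was fixed by the filter. ADAM10, which sheds CX3CL1 and CXCL16 from the membrane, was at 37.1 and 36.6 in April and 44.7 and 49.9 in October (adjusted p = 0.189). The gelatinase MMP9 was at 39.7 and 23.2 in April and 106 and 203 in October (adjusted p = 0.0724), and MMP7 had a fold change of 1.18.

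The male and female libraries were compared in a fit with phase and sex as terms. Sex and replicate number are the same in the labels, so a difference between sexes and one between replicate series cannot be told apart. Of the 62 tested members, 1 passed, CXCR4, as lower in males, against 0.0481% of all tested genes, and 0 as higher, against 0.0961%. In either direction the share of all tested genes was 0.144%, and 12 members had an unadjusted p under 0.05, against 11% of them. CXCR4 was at 9.59 and 16.8 in the April and October female libraries, and at 2.79 and 3.63 in the male libraries. Both female values were above both male values, with a log2 difference of male minus female of -1.71 (SE 0.18, limma adjusted p = 0.0473), -1.48 early and -1.94 mid. The call was lost with no filter on low values (adjusted p = 0.391) and with sex as the only term (adjusted p = 1).

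A further set of members lay just outside the threshold, all higher in females. IL33 differed by -1.34 (limma adjusted p = 0.0503). TNFSF15, a TNF family ligand, was at 42.4 and 54.6 in the early and mid female libraries and at 8.99 and 23.0 in the male libraries, a difference of -1.67 (adjusted p = 0.0631). IL20RB, a receptor chain for the IL20 group, and LOC102175889, described as C-C motif chemokine 2, are outside the rule for named genes and were chosen after their values were seen. IL20RB was at 8.65 and 20.6 in females and 3.37 and 6.24 in males (adjusted p = 0.0549). LOC102175889 was at 2.93 and 4.27 in females and 0.474 and 0.89 in males (adjusted p = 0.0549). In 15 members, or 24.2%, both female libraries were above both male libraries, against 11.9% of all tested genes. In 8 members, or 12.9%, both male libraries were above, against 12.3%.

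**Figure D5:**
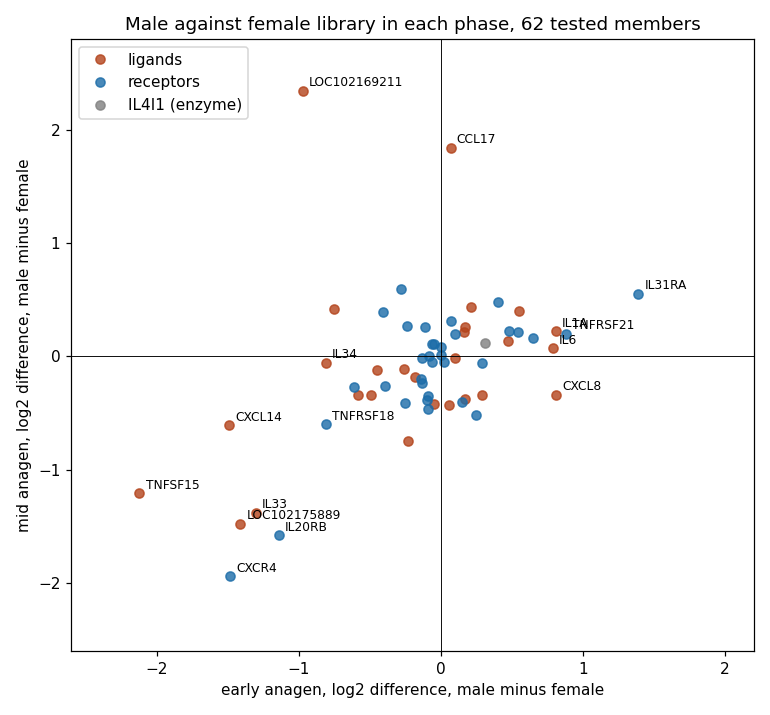
Difference between the male and female library on the log2(value + 1) scale at early anagen (horizontal) and mid anagen (vertical) for the 62 tested members; each point is 1 gene, orange for ligands and blue for receptors. CXCR4, IL33, TNFSF15, IL20RB and LOC102175889 lie low in both phases, that is, higher in females, and CCL17 with LOC102169211 is higher in the male library at mid anagen only.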

How the data were processed

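RNA-seq values of 4 libraries were used. The deposited values are a signal whose unit is not stated, not a read count, and were treated as a length-normalised abundance per gene. The submitters' processing notes list kallisto 0.46.1 together with sleuth 0.30.0. The build, annotation and gene-level summing are not given in the sources used. Depth is therefore unknown and no counting interval was computed.

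Genes at or above 1 in at least 2 libraries were tested on log2(value + 1), where fold changes of low genes are understated, in R 4.3.3 with limma 3.58.1 and an intensity trend. Phase was the only term for mid against early anagen, and phase and sex for male against female. P-values were adjusted by Benjamini-Hochberg over 12486 genes at a threshold of 0.05. The fit was tested on simulated data. With 2 libraries per phase, p-values rest on the spread between those libraries, which also differ in sex. Limma draws the spread of each gene towards that of genes at similar values. A pair (female or male) is the difference between the 2 libraries of that sex.

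The members and lists were chosen with earlier results of these data known. Named members were those called, the 4 with the smallest p and the 3 with the highest mean in each of 6 role classes, and CX3CL1. In each other list, called genes and the 3 with the smallest p were followed. Axes of ligands and receptors, and the summing of CCL17 with its like-named gene, were chosen after seeing the data. Gene spans came from RefSeq's ARS1.2 table, which held all 153 members.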

Additional observations from a re-analysis of the deposited data

Results flagged for a closer look

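In 7 named members the female and male pairs moved in opposite directions between early and mid anagen. These differences were not tested, since an interaction of phase and sex leaves no residual degrees of freedom, and 23.5% of all tested genes had opposite pairs. The log2 differences of mid minus early were -0.25 in the female and 1.53 in the male pair for CCL17, -0.09 and 0.79 for CXCL14, -0.62 and 0.25 for CXCR2 and -0.48 and 0.68 for TNFSF9. They were 0.03 and -0.31 for TNFRSF12A, 0.22 and -0.46 for TNFRSF21 and 0.04 and -0.32 for TNFSF4.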

How the results depend on the processing

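Against 1 member called higher at mid anagen, 0 were called with a pseudocount of 0.1 and 0 with no filter, 4 (CX3CL1, IL6, IL13RA1 and IL27RA) after rescaling to a common total, and between 0 and 3 when each library was left out, where a phase with 1 library borrows its spread from the other phase. The replicate numbers of the labels are shared only with sex. The female deviations from the phase mean correlated at 0.292 between phases over 12486 genes. With the replicate block, 7 members were called higher and 2 lower, and 1782 genes in all against 38. The 7 were CX3CL1, IL33 (adjusted p = 0.00487), IL6, IL13RA1, IL20RB, TNFRSF18 and CCL28, and the 2 were IL1A and TNFRSF13B.

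For male against female, 1 member was called as reported, 3 with a pseudocount of 0.1, 2 with a pseudocount of 5, 4 with a filter of 5, 8 after rescaling, and 0 with no filter or with no replicate block (16 and 5 at an unadjusted p under 0.05). Leaving out a library leaves no residual degrees of freedom in that fit.

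The ligand median of 0.18 became 0.51 after rescaling, 0.04 with no filter and 0.31 with the span trend removed, and lay between -0.16 and 0.27 with a library left out. The receptor median of 0.10 became 0.05 with a pseudocount of 5, 0.03 with no filter, 0.27 with a filter of 5 and 0.36 after rescaling, and lay between -0.01 and 0.16 with a library left out.

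Signs of the phase difference changed only in genes without a call between phases. After rescaling the log2 fold change was 0.04 and 0.12 for the immune markers CD3D and CD68, 0.09 for CXCR2, 0.20 for IL17RC, IL18 and TNFRSF12A, 0.14 for the melanocyte marker PMEL, 0.22 for TNFRSF21 and 0.03 for TNFSF4. With the span trend removed it was 0.02 for CD3D, 0.14 for CD68, -0.13 for the melanocyte factor MITF, 0.01 for PMEL and 0.15 for TNFRSF12A. With a library left out it lay between -0.28 and 1.56 for CCL17, -0.48 and 0.19 for CD68, -0.39 and 1.09 for CXCL14, -0.10 and 0.28 for CXCR1, -0.48 and 0.11 for CXCR2, -0.45 and 1.49 for CXCR4, -0.43 and 0.15 for IL18, -0.01 and 0.30 for MITF, -0.28 and 0.00 for TNFRSF12A, -0.56 and 0.32 for TNFRSF21, -0.25 and 1.87 for TNFSF15, -0.35 and 0.07 for TNFSF4 and -0.27 and 0.48 for TNFSF9. The cause was not tested.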
